A study of Mus musculus with 8 samples.

Results

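Leukotriene, lipoxygenase and prostaglandin enzymes were followed across 8 RNA-seq libraries of mouse olfactory epithelium, through 9 genes of the 25913 in the deposited count table. The genes were Alox5, Alox5ap, Ltc4s, Alox12e, Alox12, Alox15, Ptgs1, Ptgs2 and Hpgds. They were chosen by name: Alox5 and Alox12e were picked for their higher counts in these same libraries, and the other 7 were added as related enzymes. The difference between the groups is therefore given for the 9 genes as a description, without a test. By its labels, the study compared a knockout with floxed controls. The knockout is named for the olfactory marker protein gene, Omp, and the insulin-like growth factor 1 receptor gene, Igf1r. In the titles, 4 libraries are named IGF1R_flfl (numbers 1, 2, 13 and 3) and 4 are named OMP_IGF1R (numbers 11, 12, 17 and 18). All 8 came from C57BL/6J mice aged 40 weeks.

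The genotype field contradicts the titles. It names the libraries titled IGF1R_flfl as OMPIGF1 (KO) and those titled OMP_IGF1R as OMPflfl (Ctrl). The libraries are grouped here by title, and no genotype is attached to a direction. Igf1r itself had 66.5 ± 7.65 CPM (SD, n = 4), which are counts scaled to a common library size, among libraries titled IGF1R_flfl and 42.1 ± 6.32 CPM (n = 4) among those titled OMP_IGF1R. Omp had 5386 ± 989 and 1969 ± 224 CPM. Both fell among libraries titled OMP_IGF1R by edgeR's quasi-likelihood test, with log2 fold changes of -0.66 (SE 0.116, adjusted p = 0.0117) and -1.45 (SE 0.132, adjusted p = 0.00179). The labels do not spell out the driver of the deletion, and Omp is a gene of mature olfactory neurons. The design text speaks of olfactory sensory neurons, whereas the protocol describes dissected epithelium, which also holds supporting, basal, glandular, microvillar and immune cells. The labels do not state that each library is a separate animal, and the spread behind the p-values may therefore be technical. The numbers that open the titles form a separate run in each group, and a batch following them cannot be told apart from the group.

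Library totals ran from 18802471 to 27793375 counts. Of the 25913 genes, 17381 passed the low-count filter and were tested, and 1425 of these, or 8.20%, passed an adjusted p of 0.05 by edgeR's quasi-likelihood test. The share called higher among libraries titled OMP_IGF1R was 2.83% (492 genes) and the share called lower was 5.37% (933 genes). All 10 mature olfactory neuron markers were among the lower calls, and their summed level was 13889.6 to 19511.5 CPM among libraries titled IGF1R_flfl and 7742 to 9441 CPM among those titled OMP_IGF1R. IGF1R_flfl 2 and OMP_IGF1R 17 stood apart from their groups by markers of neighbouring tissue. IGF1R_flfl 2 held 2005 CPM summed over 10 olfactory bulb and oligodendrocyte genes, where the rest of its group held 118 to 140 CPM. OMP_IGF1R 17 held 662.0 CPM of squamous epithelium genes, against 28.3 to 38.0 CPM, and 532.7 CPM of skeletal muscle genes, against 5.05 to 8.16 CPM. In bulk tissue, fewer cells of a type and less RNA per cell cannot be told apart.

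Eicosanoids are short-lived lipid signals made from arachidonic acid, which phospholipases A2 release from membranes. Lipoxygenases add oxygen to it to give leukotrienes and hydroxy fatty acids, and cyclooxygenases turn it into prostaglandin H2, from which separate synthases make the individual prostaglandins. In airway epithelium, leukotrienes and prostaglandins are known products of brush (tuft) cells, mast cells, eosinophils and macrophages, and they act on smooth muscle, vessels, sensory nerves and leukocytes.

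The starts of 3 of the genes are shown first because they set the pair picked for higher counts, Alox5 and Alox12e, beside Alox12, a lipoxygenase gene near Alox12e whose groups overlapped. Each sequence is 300 bases from RefSeq (GRCm38.p6), from 250 bases before to 50 bases after the RefSeq start, read 5′ to 3′ on the gene's own minus strand. Capitals mark each match to the GC box GGGCGG or to the CCAAT box, on either strand. These 2 motifs do not overlap in the windows printed. Alox5 lies at chr6:116461129-116461428, Alox12e at chr11:70322481-70322780 and Alox12 at chr11:70255321-70255620.
Alox5: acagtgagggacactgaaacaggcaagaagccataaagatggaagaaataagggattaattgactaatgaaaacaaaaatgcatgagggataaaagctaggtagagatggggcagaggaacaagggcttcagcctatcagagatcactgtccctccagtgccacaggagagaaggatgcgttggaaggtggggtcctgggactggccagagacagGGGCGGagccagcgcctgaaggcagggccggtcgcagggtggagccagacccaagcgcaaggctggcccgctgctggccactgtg
Alox12e: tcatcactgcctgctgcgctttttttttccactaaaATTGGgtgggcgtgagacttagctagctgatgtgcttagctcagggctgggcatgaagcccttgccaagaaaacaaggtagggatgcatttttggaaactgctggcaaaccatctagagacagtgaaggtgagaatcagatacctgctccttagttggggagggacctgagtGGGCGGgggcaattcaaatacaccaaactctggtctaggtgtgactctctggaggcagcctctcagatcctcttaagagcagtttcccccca
Alox12: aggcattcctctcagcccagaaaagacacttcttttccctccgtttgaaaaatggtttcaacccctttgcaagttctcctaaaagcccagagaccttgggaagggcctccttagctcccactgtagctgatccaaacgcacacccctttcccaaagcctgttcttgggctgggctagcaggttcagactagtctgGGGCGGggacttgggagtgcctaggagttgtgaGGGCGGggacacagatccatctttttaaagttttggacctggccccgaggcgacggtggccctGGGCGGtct
The Alox5 window held 1 GC box, which begins 35 bases before the start. The Alox12e window held 1 GC box, 42 bases before the start, and 1 CCAAT box, whose letters stand reversed and complemented as ATTGG, 214 bases before it. The Alox12 window held 3 GC boxes. Neither motif is rare: GGGCGG was present in 35.7% and CCAAT in 37.4% of the 32851 RefSeq promoter windows of the same length. The table held 7 of the 9 genes and lacked Alox5ap and Alox15. TATAAA, present in 13.6% of all windows, was in none of the 7, and ATGCAAAT, present in 1.74%, was in Hpgds. A match is a description of the letters and no evidence of a bound factor.

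All 9 genes passed the low-count filter. All 9 had a positive log2 fold change, OMP_IGF1R over IGF1R_flfl, with a median of 0.47, whereas the median over all 17381 tested genes was -0.01 and 47.5% of them were positive. Alox5, Alox5ap, Alox12e and Alox15 were among the genes called higher, which makes 4 of 9 beside the 2.83% of all tested genes called in that direction. Calls of single genes given below are those of the edgeR fit with TMM factors unless another is named. For the 9 genes a call only describes the fit and is not a test of a rise. In 6 of 9 genes, those 4 with Ptgs1 and Hpgds, every library titled OMP_IGF1R lay above every library titled IGF1R_flfl, beside 6.57% of all tested genes. Since Alox5 and Alox12e were picked on this difference, nothing is read from either count. The authors' deposited table called 13.4% of the 15891 genes with an adjusted p in either direction and 6 of the 9 genes, the same 6.

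**Figure D1:**
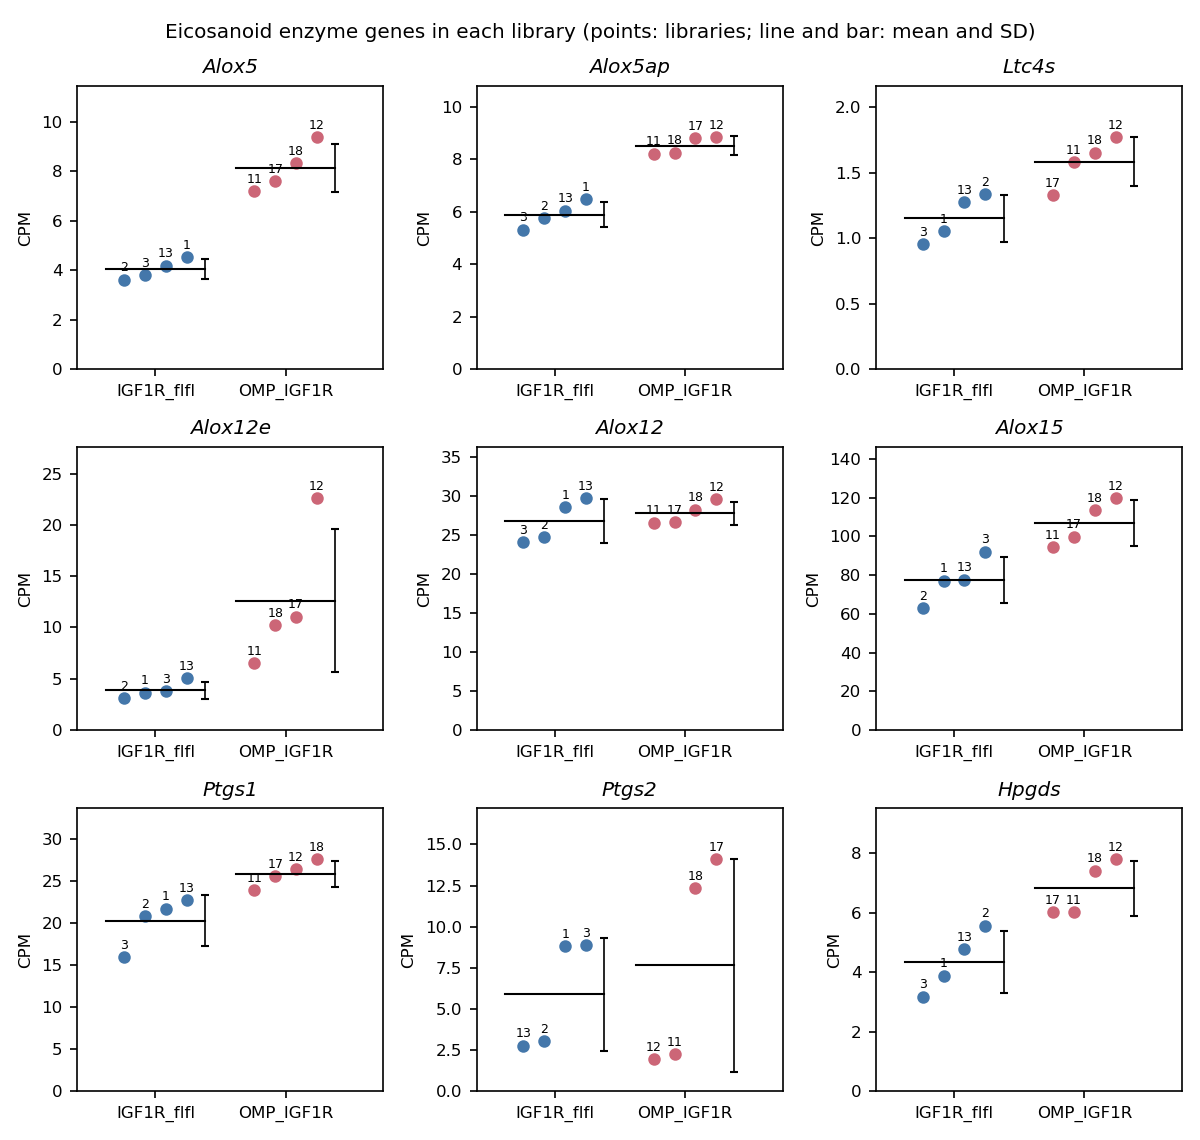
CPM (linear axis from 0) of the 9 genes in each library; points are libraries with their title numbers, lines are means and bars are SD (n = 4). The groups do not overlap for Alox5, Alox5ap, Alox12e, Alox15, Ptgs1 and Hpgds, while Ptgs2 splits each group into a high and a low pair.

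The leukotriene arm begins with Alox5 (ENSMUSG00000025701, GRCm38 chr6:116410077-116461178, minus strand), which encodes arachidonate 5-lipoxygenase, the enzyme that makes leukotriene A4. Its level was 4.53, 3.62, 4.18 and 3.81 CPM in IGF1R_flfl 1, 2, 13 and 3, and 7.19, 9.38, 7.61 and 8.33 CPM in OMP_IGF1R 11, 12, 17 and 18. The lowest library titled OMP_IGF1R was above the highest titled IGF1R_flfl, and OMP_IGF1R 12 was the highest of all. Group means were 4.03 ± 0.403 and 8.13 ± 0.959 CPM (each SD, n = 4), for a log2 fold change of 1.01 (SE 0.128). These levels rest on 92 to 249 reads or fragments per library. With each library left out in turn the log2 fold change ran from 0.93 to 1.07. The gene was among those called in all 8 fits, but it was picked for this rise, so the calls lend it no support.

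Alox5ap (ENSMUSG00000060063, chr5:149265058-149288045) encodes the membrane protein that presents arachidonic acid to 5-lipoxygenase. It stood at 6.48, 5.75, 6.04 and 5.31 CPM among libraries titled IGF1R_flfl and at 8.21, 8.86, 8.80 and 8.26 CPM among those titled OMP_IGF1R, in the same library order. The 4 libraries titled OMP_IGF1R lay within 1 CPM of each other and above all of the other group. The means of 5.90 ± 0.491 and 8.53 ± 0.344 CPM gave a log2 fold change of 0.53 (SE 0.100). Per kilobase of exon, the level of Alox5 was 0.218 to 0.248 times that of Alox5ap among libraries titled IGF1R_flfl and 0.299 to 0.366 times among those titled OMP_IGF1R. The enzyme's transcript was thus the lower of the pair in every library, by a smaller margin among those titled OMP_IGF1R. Alox5ap left the genes called when OMP_IGF1R 12 was omitted, with log2 fold changes of 0.49 to 0.58 over the 8 fits.

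Ltc4s (ENSMUSG00000020377, chr11:50236469-50238616) encodes leukotriene C4 synthase, which joins leukotriene A4 to glutathione and so opens the cysteinyl leukotriene branch. It was the least counted of the 9 genes, with 24 to 47 counts per library. Its level was 1.05, 1.33, 1.27 and 0.952 CPM among libraries titled IGF1R_flfl and 1.58, 1.77, 1.33 and 1.65 CPM among those titled OMP_IGF1R. The groups overlapped, OMP_IGF1R 17 lying just below IGF1R_flfl 2. The means were 1.15 ± 0.181 and 1.58 ± 0.188 CPM, a log2 fold change of 0.46 (SE 0.188), and the gene was called in none of the 16 alternative fits of the count data. Of its 50-base exon stretches, 15.2% also occur in Gm26542, an antisense gene over the same place. Reads of the 2 genes cannot be told apart there unless strand was used in counting, which is not given in the sources used here. The same limit holds for 6.80% of the stretches of Alox5ap, shared with the antisense gene Gm19719. It also holds for 2.63% of those of Ptgs1, shared with Gm43621 on the opposite strand.

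Alox12e (ENSMUSG00000018907, chr11:70315610-70322628, minus strand) encodes the epidermal type of 12-lipoxygenase, an enzyme of mouse skin and other epithelia. It had the largest log2 fold change of the 9 genes. The libraries titled IGF1R_flfl held 3.66, 3.09, 5.04 and 3.77 CPM, and those titled OMP_IGF1R held 6.53, 22.6, 11.1 and 10.2 CPM. The groups did not overlap, but the 4 libraries titled OMP_IGF1R were far apart, with OMP_IGF1R 12 at 3.46 times the level of OMP_IGF1R 11. The counts behind these values were 101, 81, 111 and 95 against 128, 600, 250 and 266. The means of 3.89 ± 0.825 and 12.6 ± 6.95 CPM gave a log2 fold change of 1.70 (SE 0.347), which was 1.26 without OMP_IGF1R 12 and up to 1.91 with another library left out. The gene was not called without IGF1R_flfl 1.

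Alox12 (ENSMUSG00000000320, chr11:70241457-70255353) encodes the platelet type of 12-lipoxygenase. Its level was 28.6, 24.7, 29.8 and 24.1 CPM among libraries titled IGF1R_flfl and 26.6, 29.6, 26.7 and 28.3 CPM among those titled OMP_IGF1R. The ranges lay on top of each other. The means were 26.8 ± 2.80 and 27.8 ± 1.45 CPM, and the log2 fold change of 0.05 had an SE of 0.0809. Per kilobase, Alox12e was 0.180 to 0.245 times Alox12 among libraries titled IGF1R_flfl and 0.355 to 1.10 times among those titled OMP_IGF1R. In OMP_IGF1R 12 alone was the Alox12e level per kilobase above that of Alox12.

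Alox15 (ENSMUSG00000018924, chr11:70344152-70352031) encodes the leukocyte type of 12/15-lipoxygenase, which makes hydroxy fatty acids and lipoxin precursors in macrophages, eosinophils and airway epithelium. It was the most abundant of the 9 genes. The libraries titled IGF1R_flfl held 77.1, 63.0, 77.7 and 92.1 CPM, and those titled OMP_IGF1R held 94.6, 119.8, 99.8 and 113.5 CPM. The groups did not overlap, although IGF1R_flfl 3 and OMP_IGF1R 11 were close. The means of 77.5 ± 11.9 and 106.9 ± 11.7 CPM gave a log2 fold change of 0.47 (SE 0.116). Over the 8 fits with a library left out it ran from 0.39 to 0.57, and the gene was called in 2 of them, those without IGF1R_flfl 2 and without IGF1R_flfl 3.

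Ptgs1 (ENSMUSG00000047250, chr2:36230426-36252272) encodes cyclooxygenase-1, the constitutive enzyme that makes prostaglandin H2. It stood at 21.7, 20.8, 22.7 and 15.9 CPM among libraries titled IGF1R_flfl and at 23.9, 26.5, 25.6 and 27.6 CPM among those titled OMP_IGF1R. The groups did not overlap, and IGF1R_flfl 3 was the lowest library by a wide margin. The means were 20.3 ± 3.01 and 25.9 ± 1.56 CPM, a log2 fold change of 0.35 (SE 0.107) that became 0.26 without IGF1R_flfl 3. The gene was not called by edgeR with TMM factors, and it was called by DESeq2 (0.36), limma voom (0.33) and edgeR with raw library totals (0.42).

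Ptgs2 (ENSMUSG00000032487, chr1:150100124-150108010) encodes cyclooxygenase-2, the inducible enzyme of the same reaction, whose messenger RNA is known to rise and decay quickly after a stimulus. Its level was 8.80, 3.05, 2.77 and 8.88 CPM among libraries titled IGF1R_flfl and 2.25, 1.92, 14.1 and 12.3 CPM among those titled OMP_IGF1R. Each group held 2 high and 2 low libraries, so the groups overlapped completely: the lowest and the highest library of all were both titled OMP_IGF1R. The highest library was 3.21 times the lowest among those titled IGF1R_flfl and 7.34 times among those titled OMP_IGF1R. The SD was 58.3% and 84.6% of the mean, where Ptgs1 had 14.8% and 6.03%. The log2 fold change of 0.38 had an SE of 0.675, and its sign changed to -0.08 without OMP_IGF1R 17 and to -0.29 without IGF1R_flfl 2 and OMP_IGF1R 17. No direction can be given for Ptgs2 from these libraries.

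Hpgds (ENSMUSG00000029919, chr6:65117293-65144908) encodes hematopoietic prostaglandin D synthase, which makes prostaglandin D2 in mast cells, T helper cells, macrophages and tuft cells. The libraries titled IGF1R_flfl held 3.87, 5.56, 4.77 and 3.17 CPM, and those titled OMP_IGF1R held 6.02, 7.80, 6.02 and 7.41 CPM. The groups did not overlap, although IGF1R_flfl 2 came close to OMP_IGF1R 11 and 17. The means of 4.34 ± 1.04 and 6.81 ± 0.930 CPM gave a log2 fold change of 0.65 (SE 0.185), larger than that of Alox5ap or Alox15 but with a wider error. With all libraries the gene was not called by edgeR with TMM factors, and it was called by DESeq2 (0.66), limma voom (0.71) and edgeR with raw library totals (0.72). With a library left out, edgeR called it in 1 of 8 fits, that without IGF1R_flfl 2, with log2 fold changes of 0.53 to 0.81.

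**Figure D2:**
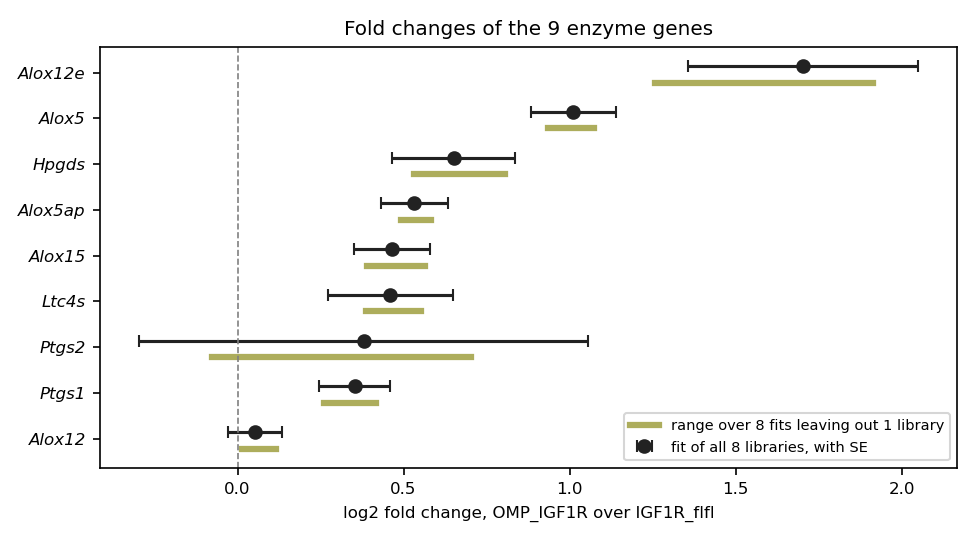
Log2 fold change (OMP_IGF1R over IGF1R_flfl) of each of the 9 genes, fitted over all 8 libraries with its SE (points and whiskers), with the range over the 8 fits that leave out a library (thick bars). Alox12e ran from 1.26 to 1.91 and Alox5 from 0.93 to 1.07, and the range of Ptgs2 alone crossed 0.

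The order of the levels was set by length-corrected values, CPM per kilobase of exon. In the libraries titled IGF1R_flfl, Alox15 led with 31.6 ± 4.84 CPM per kb (SD, n = 4), and Alox12 with 6.56 ± 0.685, Ptgs1 with 5.23 ± 0.774 and Alox5ap with 4.15 ± 0.346 followed. Alox12e had 1.38 ± 0.292, Ptgs2 1.28 ± 0.748, Ltc4s 1.14 ± 0.178, Alox5 0.982 ± 0.0981 and Hpgds 0.676 ± 0.162 CPM per kb. Alox15 stood alone at the top, and the ranges of neighbours overlapped from Ptgs1 to Alox5ap and along the run from Alox12e through Ptgs2 and Ltc4s to Alox5. In the libraries titled OMP_IGF1R, Alox15 led with 43.6 ± 4.77 CPM per kb and Hpgds was last with 1.06 ± 0.145. Alox12 with 6.80 ± 0.354, Ptgs1 with 6.67 ± 0.402, Alox5ap with 6.01 ± 0.242 and Alox12e with 4.46 ± 2.46 formed a run in which each range overlapped the next. Alox5, at 1.98 ± 0.234, stood at rank 6 in these libraries and at rank 8 in the other group. It was followed by Ptgs2 at 1.67 ± 1.41 and Ltc4s at 1.56 ± 0.185. The range of Ptgs2 overlapped those of Alox5 and Ltc4s, which by a narrow margin did not overlap each other.

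Alox12, Alox12e and Alox15 lie in a row on chromosome 11. Alox12e begins 60257 bp beyond the end of Alox12, and Alox15 begins 21524 bp beyond the end of Alox12e, with no other gene of the deposited table between them. Their log2 fold changes in that order were 0.05 (SE 0.0809), 1.70 (SE 0.347) and 0.47 (SE 0.116). Of the 3 genes, Alox12 alone had overlapping groups. On the far side of Alox12, 0610010K14Rik had -0.02 (SE 0.0668), Bcl6b 0.14 (SE 0.258), Slc16a13 0.06 (SE 0.108) and Slc16a11 0.09 (SE 0.125), and beyond Alox15, Pelp1 had 0.13 (SE 0.0653, adjusted p = 0.261 by edgeR's quasi-likelihood test). None of these 5 passed the test. March8, which ends 537 bp from Alox5, had a log2 fold change of 0.08 (SE 0.0499). Within 50 kb of any of the 9 genes there were 17 other genes, of which 15 were tested, with log2 fold changes of -0.15 to 0.57. By edgeR, DESeq2 and limma voom 0 of the 15 were called, and 1 had an unadjusted p under 0.05 in edgeR.

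**Figure D3:**
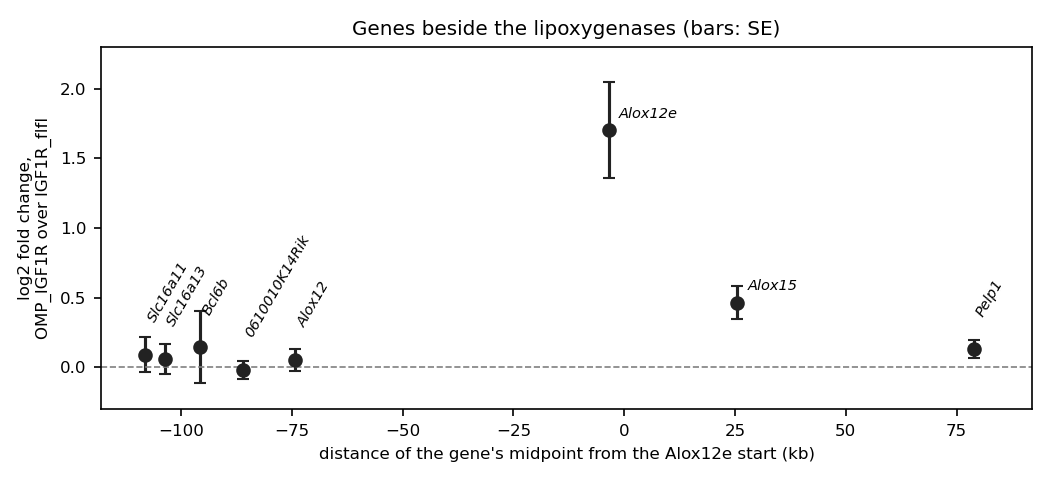
Log2 fold change with SE (OMP_IGF1R over IGF1R_flfl) of the lipoxygenase genes and their neighbours, by the distance of each gene's midpoint from the Alox12e start in kb. Alox12e (1.70) and Alox15 (0.47) lie above Alox12 (0.05) and the 5 other genes, which run from -0.02 to 0.14.

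Patterns over the 8 libraries were compared by the root mean square difference between centred log2(CPM + 0.5) values. A small number means that the centred values of 2 genes lay close together. The values were not scaled, so 2 genes that vary little also score small, and a gene with a wide spread scores large. Among the 9 genes, the closest pairs were Ltc4s with Ptgs1 (0.127) and Alox5ap with Ptgs1 (0.128). Ptgs2 was the farthest from the rest, at 0.990 to 1.37 from each of the other 8 genes, and Alox12e was the next, at 0.460 from Alox5 and farther from the others. Apart from these 2 genes, pairs lay between 0.127 and 0.442. All libraries share the tissue and the contrast, so these are descriptions of 8 points.

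Against the 15990 genes with a symbol and a mean of at least 1 CPM, the nearest to Alox5 was Dpysl3 (0.0889), with Gpr126 (0.0920) and Stil (0.0943) after it. Nearest to Alox5ap were Tgfb3, Plekho1 and Tmsb10, to Ltc4s Slc5a5, Plekhg1 and Kcnj15, and to Alox12 Ankrd6, Actn1 and Vangl1. Aurka and Gm16515 were among the nearest to Alox15, Trp53inp1 and Dcn among those to Ptgs1, and Entpd3 and Dbf4 among those to Hpgds. The uneven pattern of Alox12e was met only roughly by complement C3 (0.329), Spink5 (0.383) and Avil (0.386). C3 stood at 21.4, 24.4, 27.8 and 18.3 CPM among libraries titled IGF1R_flfl and at 39.6, 72.3, 49.8 and 64.8 CPM among those titled OMP_IGF1R, with OMP_IGF1R 12 highest as for Alox12e. With a pseudocount of 2, 18 of the 27 nearest genes, 3 for each of the 9, were the same: none of those of Ltc4s was kept, Dpysl3 gave way for Alox5 and Avil for Alox12e, and the 3 genes of Ptgs2 were kept.

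Ptgs2 had as its nearest 3 genes known for rapid, short-lived induction. They were Cyr61, a matricellular protein gene (0.525), Nr4a3, an orphan nuclear receptor gene (0.656), and Egr1, a zinc finger factor gene (0.690). These matches were rough, with larger distances than those of the genes nearest to any other enzyme gene. Cyr61 stood at 61.1, 17.03, 10.9 and 25.4 CPM among libraries titled IGF1R_flfl and at 23.3, 14.4, 52.8 and 46.9 CPM among those titled OMP_IGF1R. Nr4a3 stood at 27.6, 5.41, 2.32 and 13.8 CPM against 2.50, 6.86, 13.7 and 14.6 CPM. Egr1 stood at 26.4, 14.2, 10.4 and 26.2 CPM against 25.2, 17.3, 31.0 and 36.7 CPM. In all 4 genes IGF1R_flfl 1 and 3 were above IGF1R_flfl 2 and 13, and OMP_IGF1R 17 and 18 were above OMP_IGF1R 11 and 12. The 3 genes were chosen for closeness to Ptgs2, so this shared order is no separate result.

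**Figure D4:**
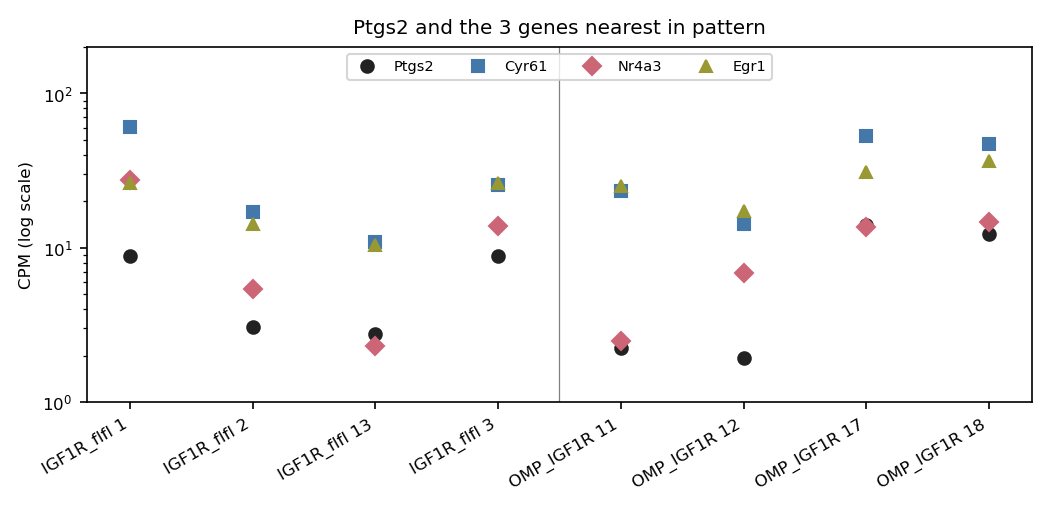
CPM (log axis) of Ptgs2 and the 3 genes nearest to it in pattern, in each library, the groups divided by a vertical line. All 4 genes are higher in IGF1R_flfl 1 and 3 than in 2 and 13, and higher in OMP_IGF1R 17 and 18 than in 11 and 12.

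The rest of the pathway was read from 73 further genes listed by function, of which 55 were tested. Their log2 fold changes had a median of 0.08, with 35 positive and 20 negative. By edgeR's quasi-likelihood test 0 of the 55 rose and 2 fell among libraries titled OMP_IGF1R, and 10 had an unadjusted p under 0.05. The share of all tested genes with an unadjusted p under 0.05 was not determined, so nothing is read from such counts in any list. Beside the 2.83% of all tested genes called higher and the 5.37% called lower, neither share was above that of the whole table. DESeq2 called 1 higher and 2 lower, and limma voom 0 higher and 2 lower. Both genes that fell are outside the 9 enzymes above, 1 listed with the epoxide hydrolases and 1 with the prostanoid synthases. Ephx4, a member of the epoxide hydrolase family, stood at 61.1, 59.1, 54.6 and 70.6 CPM among libraries titled IGF1R_flfl and at 43.9, 33.5, 48.6 and 43.3 CPM among those titled OMP_IGF1R. The groups did not overlap, and the fall was -0.54 on the log2 scale (SE 0.115, adjusted p = 0.0229 by edgeR's quasi-likelihood test). Of the same family, Ephx1 had 496.0 ± 73.6 and 457.5 ± 21.7 CPM among libraries titled IGF1R_flfl and OMP_IGF1R. Ephx2 had 7.35 ± 0.433 and 8.20 ± 0.486 CPM, and neither of these genes was called. Fam213b, a prostaglandin F synthase gene listed in the table as 2810405K02Rik, went from 230.9, 212.7, 205.6 and 293.1 CPM to 181.5, 139.6, 189.1 and 160.9 CPM. Its log2 fold change was -0.49 (SE 0.130, adjusted p = 0.0488 by the same edgeR test). The call for Ephx4 was lost without IGF1R_flfl 1, IGF1R_flfl 3, OMP_IGF1R 11 or OMP_IGF1R 18 (adjusted p up to 0.0661), and that for Fam213b in 10 of 16 alternatives (adjusted p up to 0.134).

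Upstream of the 9 enzymes, 12 of 21 phospholipase A2 genes were tested. None was called by edgeR, DESeq2 or limma voom, and 1 had an unadjusted p under 0.05 in edgeR. The most abundant were Pla2g16 (71.4 ± 6.38 and 73.3 ± 2.90 CPM among libraries titled IGF1R_flfl and OMP_IGF1R), Pla2g7 (27.9 ± 12.9 and 24.5 ± 2.41 CPM) and Pla2g15 (21.1 ± 1.51 and 23.6 ± 1.60 CPM). Pla2g4a, the cytosolic phospholipase that feeds leukotriene and prostaglandin synthesis and is named here for that role, had 16.97 ± 2.99 and 20.4 ± 2.09 CPM (log2 fold change 0.27, SE 0.131, adjusted p = 0.258 by edgeR). The groups overlapped.

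Of 12 other leukotriene enzyme and export genes, 11 were tested and 0 were called by any of the 3 tools, with 2 at an unadjusted p under 0.05 in edgeR. Lta4h, whose product turns leukotriene A4 into leukotriene B4 and competes with Ltc4s for it, is named for that role. It had 46.5 ± 1.57 and 41.7 ± 2.21 CPM, a log2 fold change of -0.15 (SE 0.0537, adjusted p = 0.120 by edgeR), with every library titled OMP_IGF1R below every library titled IGF1R_flfl. The values for the enzyme at the branch to leukotriene B4 thus stood on the other side of 0 from those of Alox5, Alox5ap and Ltc4s, without passing the test. Among the most abundant, Mgst1 had a log2 fold change of -0.15, Mgst3 of -0.01 and Abcc1, the leukotriene C4 exporter, of -0.18.

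Another 3 lipoxygenase genes were read outside the 9. Aloxe3, an enzyme of the skin barrier, had 0.918 ± 0.126 and 1.26 ± 0.397 CPM (log2 fold change 0.45, SE 0.252, adjusted p = 0.320 by edgeR). Alox12b, its partner in the barrier, was below the filter: OMP_IGF1R 17, the library with squamous RNA, held 82 of its counts, and the other 7 libraries held 0 to 6. Alox12e had 11.1 CPM in that library and 10.2 CPM in OMP_IGF1R 18, and its log2 fold change without IGF1R_flfl 2 and OMP_IGF1R 17 was 1.68. Alox8 had at most 0.724 CPM in any library.

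Downstream of the cyclooxygenases, 10 prostanoid synthase genes were tested, with Fam213b the 1 called by edgeR. Ptgds, the lipocalin-type counterpart of Hpgds, had 105.9, 139.9, 116.3 and 81.7 CPM among libraries titled IGF1R_flfl and 189.5, 142.3, 149.7 and 128.4 CPM among those titled OMP_IGF1R. The groups overlapped, and the log2 fold change was 0.46 (SE 0.165, adjusted p = 0.129 by edgeR, 0.0327 by DESeq2). Both prostaglandin D synthases thus had positive values, 0.65 and 0.46, and neither passed the edgeR test. Ptges3 had a log2 fold change of -0.03. Among 4 genes of prostanoid breakdown and transport, Hpgd, which inactivates prostaglandins, had 51.8 ± 6.27 and 58.0 ± 4.13 CPM, Abcc4, an exporter, 133.7 ± 17.3 and 115.5 ± 1.32 CPM, and Ptgr2 48.8 ± 4.04 and 46.4 ± 2.29 CPM.

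Receptors for these lipids were mostly scarce on the leukotriene side. Of 10 leukotriene and lipoxin receptor genes 4 were tested, and 7 stayed below 1 CPM in every library. Cysltr1, the main cysteinyl leukotriene receptor, had 4.19 ± 1.39 and 4.82 ± 0.741 CPM, Cmklr1 4.47 ± 0.836 and 5.39 ± 0.680 CPM, and Gpr17 1.52 ± 1.37 and 0.793 ± 0.277 CPM, with its highest value, 3.54 CPM, in IGF1R_flfl 2. All 9 prostanoid receptor genes were tested. Ptger1, a prostaglandin E2 receptor, had 64.9 ± 3.75 and 68.2 ± 3.26 CPM, Ptgdr, a prostaglandin D2 receptor, 29.1 ± 5.57 and 31.4 ± 3.51 CPM, and Ptger3 23.4 ± 0.587 and 21.5 ± 1.74 CPM. Over both receptor lists, 0 were called by edgeR, DESeq2 or limma voom, and only 1, a prostanoid receptor, had an unadjusted p under 0.05 in edgeR.

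**Figure D5:**
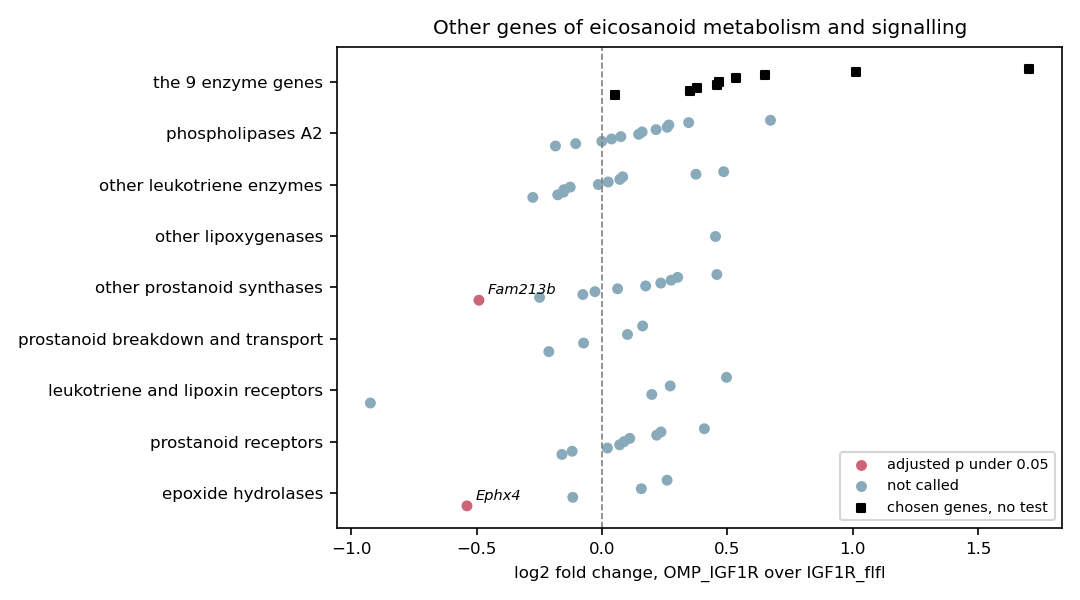
Log2 fold change (OMP_IGF1R over IGF1R_flfl) of the tested genes in each functional list, with the 9 enzyme genes in the top line as squares. By edgeR's quasi-likelihood test, Ephx4 (-0.54) and Fam213b (-0.49) were the genes among the 55 that passed an adjusted p of 0.05.

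Markers of tuft-like and immune cells, known to use these enzymes, were set beside the 9 genes. Of 16 tuft-like microvillar genes, all tested, 6 rose and 1 fell among libraries titled OMP_IGF1R by edgeR's quasi-likelihood test. Trpm5, the cation channel of these cells, had 14.3 ± 2.13 and 27.3 ± 4.80 CPM (log2 fold change 0.93, adjusted p = 0.00749 by edgeR), and Avil, Sh2d6, Sh2d7, Lrmp and Plcb2 had log2 fold changes of 1.17, 1.21, 1.01, 1.11 and 0.65. Gng13, which olfactory neurons also express, fell by 0.66. Pou2f3, the factor that defines the lineage and is named for that role, had 6.91 ± 1.68 and 7.17 ± 0.978 CPM, a log2 fold change of 0.05 (adjusted p = 0.895 by edgeR). The summed level of the list was 571 to 652 CPM among libraries titled IGF1R_flfl and 488 to 546 CPM among those titled OMP_IGF1R, of which Gng13 made up most. Without Gng13 and Dclk1, a choice made after their values were seen, the other 14 genes summed to 56.6 to 71.0 and 95.9 to 131 CPM. This sum was highest in OMP_IGF1R 12, the library in which Alox5, Alox5ap, Ltc4s, Alox12e, Alox12, Alox15 and Hpgds were highest of their group. The sum of all 16 genes was instead highest of its group in OMP_IGF1R 17, at 546 CPM, with 499 CPM in OMP_IGF1R 12. The part of tuft-like cells in the values of the 9 genes was not tested.

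Of 12 mast cell and basophil genes, 10 were below 1 CPM in every library, and Tpsab1 was at 0 counts in all 8. The other 2 were Kit and Hdc, which stood on opposite sides of 0. Kit rose (16.5 ± 1.88 and 24.5 ± 4.45 CPM, log2 fold change 0.57, adjusted p = 0.0333 by edgeR), and Hdc, which makes histamine, had 62.5 ± 4.86 and 53.3 ± 5.98 CPM (-0.23, adjusted p = 0.150 by edgeR). The list summed to 74.5 to 83.6 and 74.5 to 81.8 CPM. Eosinophil genes summed to at most 3.19 CPM in any library, with 3 of 8 tested. Macrophage genes, 12 of 12 tested, all had positive log2 fold changes with a median of 0.19, and summed to 146 to 204 and 197 to 219 CPM. By edgeR, DESeq2 and limma voom 0 of the 12 were called, and 2 had an unadjusted p under 0.05 in edgeR. The lowest macrophage sum was in IGF1R_flfl 3, which also held the lowest level of Alox5ap, Ltc4s, Alox12, Ptgs1 and Hpgds and the highest of Alox15 in its group. Among 10 T and B lymphocyte genes Cd79b, a B cell receptor subunit, rose from 0.920 ± 0.211 to 1.73 ± 0.256 CPM, and the list summed to 4.16 to 9.71 and 10.5 to 13.2 CPM. Neutrophil genes summed to 46.4 to 99.4 and 64.5 to 81.0 CPM, with Mpo lower by the test. Platelet genes, which bear on Alox12, summed to 33.5 to 38.3 and 39.7 to 46.1 CPM, with 0 of 5 called by edgeR, 1 by DESeq2, 1 by limma voom and 1 at an unadjusted p under 0.05. What share of the 9 genes' counts came from each of these cells was not tested.

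Epithelial markers also differed beside the 9 genes, of which Alox12e and Alox15 are known from epithelia. Horizontal basal cell genes, the reserve stem cell markers, all had positive log2 fold changes (8 of 8). Their sum was 270 to 322 CPM among libraries titled IGF1R_flfl and 349 to 549 CPM among those titled OMP_IGF1R, or up to 370 CPM without OMP_IGF1R 17. Krt17 (0.38, adjusted p = 0.0433) and Itgb4 (0.29, adjusted p = 0.0163) rose by edgeR's quasi-likelihood test, and DESeq2 and limma voom each called 4 of the 8 higher. Of 7 goblet and respiratory secretory genes tested, Spdef, a factor of secretory cells, rose (12.2 ± 1.66 and 17.4 ± 0.751 CPM, log2 fold change 0.51, adjusted p = 0.0195 by edgeR), and the list summed to 1283 to 1807 and 1863 to 2085 CPM. Ciliated respiratory genes went the other way, with 8 of 8 negative, Ccdc39 and Tekt1 lower by the edgeR test, and sums of 594 to 867 and 555 to 653 CPM. Of 10 squamous epithelium genes tested Spink5 rose, which is also among the genes nearest to Alox12e in pattern. Sustentacular genes summed to 21147 to 26489.6 and 22594 to 23992 CPM, and Bowman's gland genes to 18142 to 32632 and 22307 to 32348 CPM. Both ranges overlapped between the groups. The part of these epithelial cells in the values of Alox12e, Alox15 and the other enzyme genes was not tested.

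The authors' deposited table gave smaller log2 fold changes for every gene but Alox12. In the authors' deposited table Alox5 stood at 0.86 (SE 0.131), Alox12e at 0.89 (SE 0.179) and Ptgs2 at 0.06 (SE 0.133), against 1.01, 1.70 and 0.38 in the fit made here. DESeq2 run here gave 1.02 (SE 0.157), 1.71 (SE 0.340) and 0.39 (SE 0.805) for the same genes. The sources used here do not say whether the authors' values were pulled toward 0 for noisy genes. The authors' values and those made here may therefore not be like measures, and the smaller sizes are not read as smaller effects. For Alox5ap, Alox15, Ptgs1 and Hpgds the authors' deposited table gave 0.48, 0.42, 0.32 and 0.50, and for Ltc4s and Alox12 0.29 and 0.06. All 9 had the same sign in both. Alox12e and Alox5 led in both, and in the authors' deposited table these 2 genes lay within 1 SE of each other.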

How the data were processed

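RNA from dissected olfactory epithelium was made into stranded poly(A)-selected libraries and sequenced as 100 bp paired-end reads, per the labels' protocols. The submitters' processing notes name TopHat2 (2.0.14), Trim Galore (0.3.7), SAMtools (1.2), DESeq2 and the builds GRCm38 and mm10. How reads were counted, and whether strand was used, is not given in the sources used here. The deposited table holds whole-number counts per gene for 8 libraries, not normalized. A second deposited table gives, per the file headers, the authors' mean normalized signal, a log2 fold change and its standard error, a score from their test and p-values. It served as description only. Libraries were grouped by title, and no within-group pair was a copy (mean chi-square per gene 11.9 to 108.9).

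Counts were fitted with edgeR 4.0.16 in R 4.3.3 (TMM, filterByExpr, quasi-likelihood test, Benjamini-Hochberg adjustment over 17381 genes, threshold 0.05), and the script was tested on simulated data. Each SE of an edgeR log2 fold change was derived from the test: the size of the fold change divided by the square root of the quasi-likelihood F value. CPM (counts scaled to a common library size) use TMM factors on totals of 18802471 to 27793375 counts, and low counts such as those of Ltc4s are the least precise. DESeq2 1.42.0, limma 3.58.1 (voom with sample weights), other scalings and filters, and left-out libraries were alternatives. Exon lengths came from GENCODE on GRCm38. Named were the 9 genes, pathway genes called and the 3 most abundant of each pathway list, markers called or among the 3 most abundant, the 3 genes nearest in pattern, and neighbours within 50 kb. Genes named for their role were added with values known. Some of the genes nearest in pattern are not reported here. The members and lists were chosen with earlier results of these data known.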

Additional observations from a re-analysis of the deposited data

Results flagged for a closer look

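Within each group of 4 libraries, levels of the 9 genes, of Ephx4 and Fam213b and of summed marker lists were searched for a library far from the other 3. Of 56 groups examined, 6 had one, where chance alone flags about 1 in 20 groups, or 2.8 of 56. None of the 9 enzyme genes was among them. The summed tuft-like microvillar genes stood at 651.5 CPM in IGF1R_flfl 3, where the rest of its group held 571 to 580 CPM. Gng13, which olfactory neurons also express, stood at 487.8 CPM in IGF1R_flfl 3, against 389.7 to 396.7 CPM. Without Gng13 and Dclk1 the list summed to 58.7 CPM in IGF1R_flfl 3, inside its group's range of 56.6 to 71.0 CPM. The summed macrophage genes stood at 146.3 CPM in the same library, against 198 to 204 CPM. In OMP_IGF1R 17 the summed squamous epithelium genes stood at 662.0 CPM (others 28.3 to 38.0), the horizontal basal genes at 548.9 CPM (349 to 370) and the skeletal muscle genes at 532.7 CPM (5.05 to 8.16). In IGF1R_flfl 2 the olfactory bulb and oligodendrocyte genes stood at 2005 CPM (118 to 140).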

How the results depend on the processing

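Of the 9 enzyme genes, 8 kept a positive log2 fold change in all 16 alternatives, and Ptgs2 did not. With raw totals, DESeq2 and limma voom 6 of the 9 were called, and without IGF1R_flfl 1 or OMP_IGF1R 12 only 2 were. The fold change of Ltc4s was 0.63 without IGF1R_flfl 2 and OMP_IGF1R 17 together. Genes called across the table numbered 569 to 1477 with 1 library left out, among them 841 and 886 when IGF1R_flfl 1 or 3 was omitted and 724, 613 and 569 when OMP_IGF1R 11, 12 or 18 was, and 1201 to 2126 otherwise. Raw library totals gave 775 higher and 542 lower, 58.8% higher against 34.5% with TMM. The other pathway genes called numbered 1 with DESeq2 size factors, upper-quartile factors, raw library totals or no low-count filter, and 0 to 4 with 1 library left out (0 without IGF1R_flfl 1, IGF1R_flfl 3, OMP_IGF1R 11 or OMP_IGF1R 18, 1 without OMP_IGF1R 12 or OMP_IGF1R 17, and 4 without IGF1R_flfl 2). Fewer libraries enter those fits, and the cause of the other changes was not tested. No paired analysis was possible because the groups share no replicate numbers. Counts of 24 to 47 limit Ltc4s.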
